A study of Bos taurus with 4 samples.

Results

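The collagen genes of bovine intramuscular preadipocytes were taken as every non-control array probe whose gene name in the files has the form COL, a number, A and a number. The rule found 105 probes for 33 genes, out of 43653 probes for 25153 genes on the array. They fall into 9 structural classes: fibrillar collagens (9 genes), type IV of basement membranes (5), multiplexins (2), FACITs, which sit on the surface of fibrils (6), short-chain network collagens (3), type VI of beaded filaments (3), type VII of anchoring fibrils (1), transmembrane collagens (3) and type XXVIII (1). The rule did not find 12 of the 45 collagen genes listed for these classes, among them COL5A1, COL6A3 and COL14A1, and these are not analysed here.

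BIP cells are a line of fat cell precursors from the adipose tissue that lies within bovine skeletal muscle. The study has 4 groups, with 3 arrays in each. The ATRA group had 6 days in adipogenic medium with 1 µM all-trans retinoic acid, the 9cRA group had 6 days with 1 µM 9-cis retinoic acid, the day 6 control had 6 days with neither, and the day 0 group was harvested at the start of that stimulation and is labelled untreated. The adipogenic medium, shared by all day 6 groups, held insulin (50 ng/mL), dexamethasone (0.25 µM), octanoate (5 mM), acetic acid (10 mM) and 10% fetal bovine serum, and was renewed every 2 days. The study's title names vitamin A and its effect on the expression profile of differentiating preadipocytes as the question. The labels list every group as 1 sample with 3 array files, and nothing says that the arrays came from separate cultures, so that the p-values rest on array-to-array spread alone, possibly a technical one. In such cultures fewer cells of a type and less RNA per cell cannot be told apart.

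Collagens are the main structural proteins of the extracellular matrix and are built from 3 chains wound into a helix, in which glycine recurs at a fixed spacing along each chain. Fibrillar collagens form the tensile fibres of connective tissue, FACITs and fibril-associated chains set the surface and diameter of those fibres, and type IV collagen forms the sheet of the basement membrane that surrounds a mature adipocyte. Type VI collagen forms beaded filaments around fat and muscle cells. In developing fat, a fibre-rich matrix is known to give way to a basement membrane as precursors mature. ATRA and 9cRA, both derived from vitamin A, differ in the geometry of 1 double bond. ATRA is known to bind retinoic acid receptors, and 9cRA to bind retinoid X receptors as well.

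Values below are log2 of the processed spot signal minus the array's 75th percentile, called the log2 level. A level compares groups for a probe and says nothing of one probe against another. A difference is the log2 level of the first group minus that of the second, with the SE of the limma fit over all 12 arrays, and a gene was called at a Benjamini-Hochberg adjusted p under 0.05 over 17622 genes tested. The brightest probe of a gene stands for that gene. Each array had between 64.8% and 74.0% of its probes well above background, lowest on day 6 control array 1, where 103 spots were marked non-uniform (at most 2 elsewhere). The arrays lay on 3 slides. Slide 1 carried day 6 control array 1 and the day 0 arrays. Slide 2 carried ATRA arrays 1 and 2 and day 6 control arrays 2 and 3. Slide 3 carried ATRA array 3 and the 9cRA arrays. Thus 9cRA and the day 6 control share no slide, and neither retinoid group shares a slide with day 0. Only day 6 control array 1 ties day 0 to the other slides.

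Markers of other cell types were read on 9 lists. PECAM1 (endothelium), MYF5 (muscle precursors), SCX and TNMD (tendon), CNMD (cartilage), CD3E (T cells) and ADIPOQ (mature adipocytes) were well above background on no array. Other members of the same lists were well above background on all 12 arrays, among them VWF and TEK of endothelium, MYOD1 and MYOG of muscle, ACAN and COMP of cartilage, MKX of tendon, and PTPRC, CD68 and CD14 of leukocytes. All 3 leukocyte markers tested were called higher with each retinoid, CD14 by 2.31 with ATRA and 2.33 with 9cRA and PTPRC by 0.86 and 0.78. VWF rose by 2.34 with ATRA and 1.96 with 9cRA. TEK differed by 0.43 and 0.21, called with ATRA only, and KDR by 0.66 and 0.68, called with neither. ACAN fell by 1.95 and 2.31 and MKX by 0.87 and 0.88, while COMP differed by 0.03 and 0.19 and was not called. In the leukocyte list the summed linear level was 4.002 to 4.222 with ATRA, 3.75 to 4.17 with 9cRA, 1.36 to 2.10 in the day 6 control and 1.83 to 2.16 at day 0. Of 4 epithelial markers, KRT8 alone was well above background on all 12 arrays. KRT18, well above background on 1 of 3 day 6 control arrays, was called higher with ATRA by 1.62, and 0 were called with 9cRA. Over culture CDH1 and KRT18 were called lower, at -0.83 and -1.01.

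Of 8 fibroblast and preadipocyte markers, 7 were well above background on every array, and with ATRA 1 was called higher and 5 lower. LUM fell by 2.75, THY1 by 1.77 and DCN by 0.69 with ATRA, whereas PDGFRA rose by 1.38 with ATRA and 1.29 with 9cRA, and PDGFRB was called higher with 9cRA at 0.46 and not with ATRA. A summed linear level weighs the brightest probes most, here VIM, DCN and LUM, and it lay between 346 and 390 with ATRA, 362 and 381 with 9cRA, 539 and 585 in the day 6 control and 414 and 434 at day 0. Of 6 smooth muscle and myofibroblast markers, 5 were well above background on every array and all 5 were called lower with each retinoid, ACTA2 by 3.86 with ATRA. Their sum was 34.2 to 34.5 with ATRA, 35.9 to 39.4 with 9cRA, 217 to 254 in the day 6 control and 412 to 423 at day 0. Adipocyte markers did not move together. FABP4 fell by 4.94 with ATRA and 4.64 with 9cRA and CIDEC by 0.68 and 0.41, while PPARG differed by 0.02 and 0.06, LPL by -0.03 and 0.14 and PLIN1 by 0.25 and 0.16, none of these 3 called. Over culture FABP4 rose by 4.34, PPARG by 1.81 and LPL by 2.49, and CIDEC fell by 2.84. The adipocyte sum, which is mostly FABP4 in the day 6 control, was 3.43 to 3.54 with ATRA, 3.69 to 4.64 with 9cRA, 70.7 to 88.4 in the day 6 control and 4.26 to 4.40 at day 0. The part of these shifts in the collagen differences below was not tested.

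The array reads most collagens through several probes of 60 bases, and 14 of the 105 collagen probes carry the collagen repeat in full, a glycine codon (GGN) at every complete slot of a 9-base period in the strand of the probe. Among the other 43548 probes on the array 3 do so, or 0.00689%, against 13.3% of the collagen probes. The probes below, from the deposited array files, are repeat probes of genes described below, and capitals mark the glycine codons. Of those printed, only the COL2A1 probe is the brightest of its gene and stands for it.
COL1A1 (chr19:37099610-37099889, + strand): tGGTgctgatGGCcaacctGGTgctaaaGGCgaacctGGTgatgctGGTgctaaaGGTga
COL1A2 (chr4:11650923-11650982, + strand): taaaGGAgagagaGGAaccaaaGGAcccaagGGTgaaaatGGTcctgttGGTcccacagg
COL2A1 (chr5:32475718-32476019, + strand): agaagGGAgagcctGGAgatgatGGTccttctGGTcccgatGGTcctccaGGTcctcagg
COL5A3 (chr7:15782066-15782201, - strand): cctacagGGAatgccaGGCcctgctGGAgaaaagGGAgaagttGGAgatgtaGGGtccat
COL11A1 (chr3:40573171-40574854, + strand): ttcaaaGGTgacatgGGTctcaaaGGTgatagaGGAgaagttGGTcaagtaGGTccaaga
COL6A2 (chr1:147561093-147561436, + strand): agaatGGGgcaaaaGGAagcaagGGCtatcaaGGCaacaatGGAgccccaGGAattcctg
COL4A1 (chr12:88894546-88894605, - strand): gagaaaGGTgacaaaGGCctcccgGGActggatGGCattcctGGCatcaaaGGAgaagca
The positions printed come from the array files (build UMD3.1), and some give a genomic span longer than the 60 bases of the probe. The repeat probes were picked for glycine codons at a fixed spacing, so that some likeness among them follows from that choice. In the best ungapped alignment with a probe of another collagen gene, the 14 repeat probes share a median of 34 of 60 bases and at most 36, against a median of 26 and at most 34 for the other 91 collagen probes.

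Of the 33 collagen genes, 22 could be tested, meaning that in some group all 3 arrays read the brightest probe well above background. Of these, 19 were well above background on all 12 arrays. COL13A1 passed only through the retinoid groups, where it was high, and COL10A1 and COL28A1 were well above background on 2 of 3 day 6 control arrays. The 11 genes that could not be tested were COL11A2 (a fibrillar chain of cartilage), COL4A3, COL4A5 and COL4A6 (type IV chains of specialised basement membranes), COL9A3, COL20A1 and COL21A1 (FACITs), COL6A6 (type VI), COL7A1 (anchoring fibrils of skin), and COL17A1 and COL25A1 (transmembrane). COL20A1 came nearest, with 2 ATRA, 2 9cRA, 1 day 6 control and 0 day 0 arrays well above background.

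Some collagens were higher with retinoid and others lower. Relative to the day 6 control, COL13A1, COL18A1, COL27A1 and COL8A2 rose with both retinoids, and COL11A1, COL16A1, COL6A2 and COL5A2 fell with both. The brightest probes of the bulk collagens COL1A1, COL1A2, COL3A1, COL4A1 and COL6A1 differed by at most 0.12 in either comparison. With ATRA, 4 of 22 collagen genes were called higher and 5 lower, where 23.7% of all tested genes were called higher and 22.4% lower. With 9cRA, 6 were called higher and 7 lower, where 24.8% and 21.8% of all tested genes were. The median collagen difference was 0.06 with ATRA and 0.04 with 9cRA, beside 0.05 and 0.06 over all genes. The share of collagens called thus lay near or below that of all genes in the ATRA comparison. In the 9cRA comparison it lay above, slightly among genes called higher and more among those called lower. Neither is a result about the collagens as a set.

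**Figure D1:**
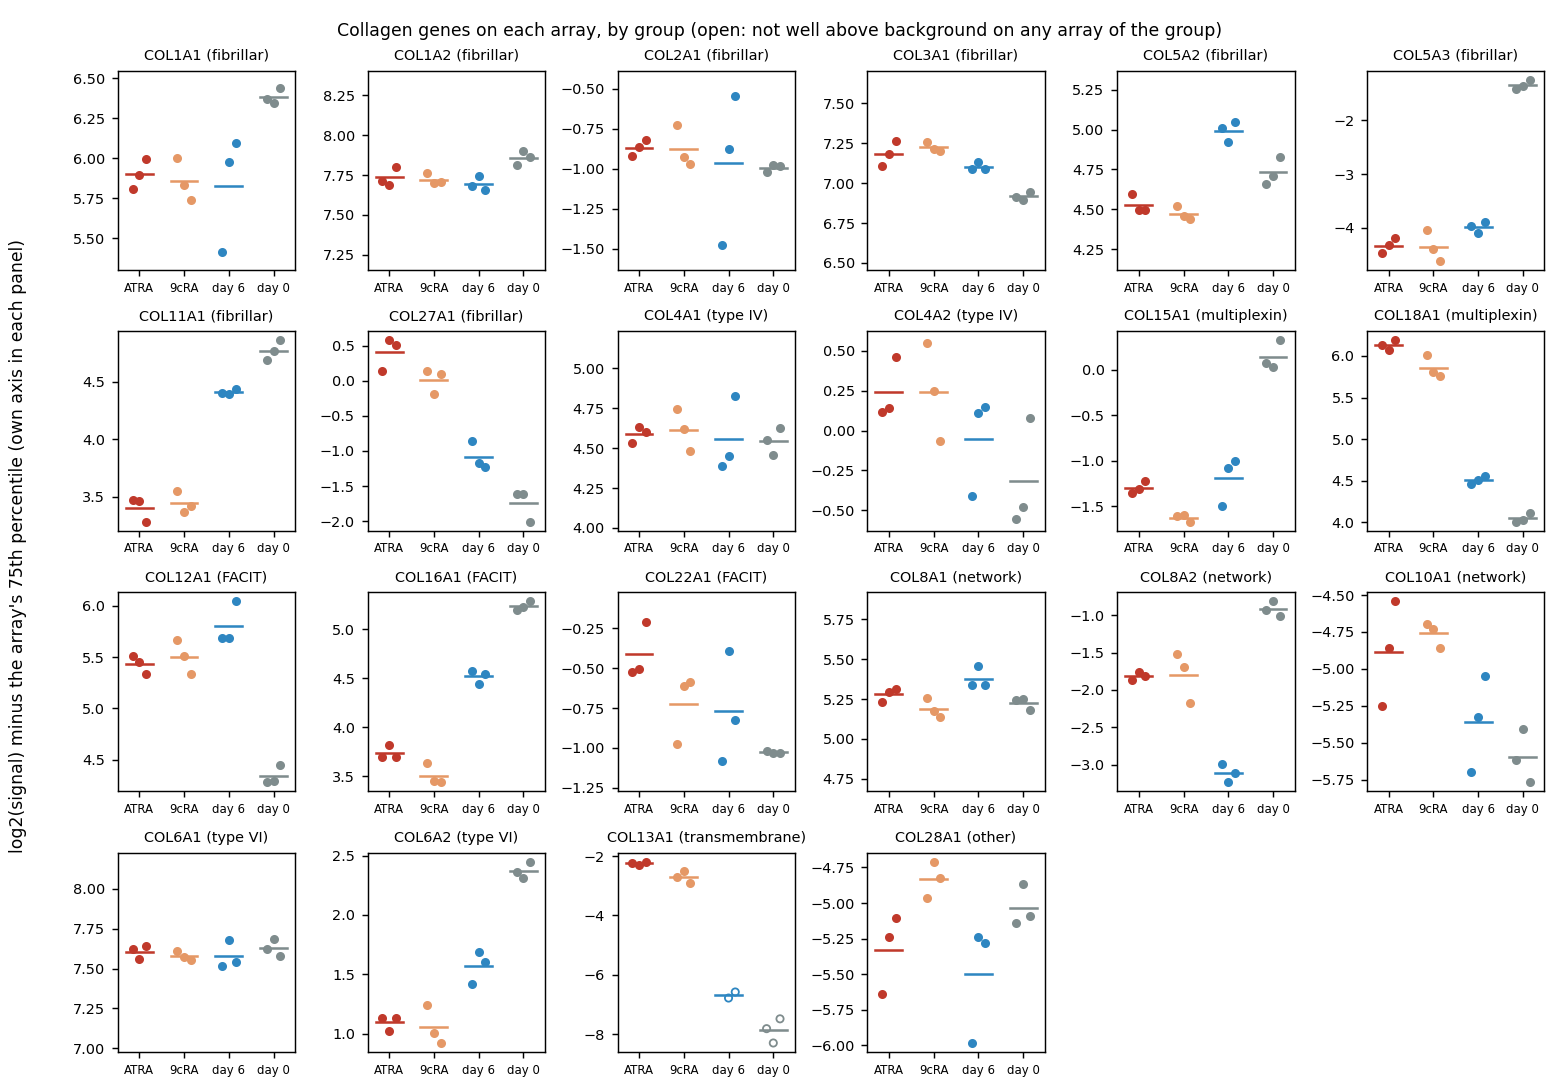
Log2 level (vertical axis, scaled as in the text and separate for each gene) of the 22 tested collagen genes on each array, with groups in the order ATRA, 9cRA, day 6 control and day 0 along the horizontal axis. Points are arrays, bars are group means, and open points mark a group in which the probe was well above background on no array. COL13A1 lies near -2 only in the retinoid groups, and COL8A2 is lowest in the day 6 control, where its mean is -3.11.

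The fibrillar class divided. COL1A1 and COL1A2 encode the chains of type I collagen, the main fibre protein of connective tissue, and COL3A1 encodes type III, which joins it in loose tissue. COL1A1 had log2 levels of 5.81, 5.89 and 6.00 with ATRA, 6.00, 5.83 and 5.74 with 9cRA, 5.41, 5.98 and 6.09 in the day 6 control and 6.37, 6.34 and 6.44 at day 0. The retinoid arrays lie inside the range of the day 6 control, and every day 0 array lies above all the others. COL1A1 was lower in the day 6 control than at day 0 by a difference of -0.56 (SE 0.15, adjusted p = 0.00857), and the difference was 0.07 with ATRA (SE 0.15, adjusted p = 0.719) and 0.03 with 9cRA (SE 0.15, adjusted p = 0.891). Day 6 control array 1 was the lowest of all 12, and within slide 1 the difference from day 0 was -0.97. Under quantile normalization and cyclic loess the fall since day 0 was no longer called, at -0.40 under each.

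COL1A2 averaged 7.74 ± 0.06 with ATRA, 7.72 ± 0.04 with 9cRA, 7.69 ± 0.04 in the day 6 control and 7.86 ± 0.05 at day 0 (SD, n = 3 arrays each), and differed in the day 6 control from day 0 by -0.17 (limma adjusted p = 0.013). That sign turned with the scaling, at 0.01 under quantile normalization and 0.03 under cyclic loess, and the call was lost without day 0 array 2 (-0.15). COL3A1 averaged 7.19 ± 0.08, 7.23 ± 0.03, 7.10 ± 0.02 and 6.92 ± 0.03 in the same groups (SD, n = 3 arrays each). It rose in the day 6 control relative to day 0 by 0.19 (SE 0.05, limma adjusted p = 0.00671). The difference was 0.08 with ATRA and 0.12 with 9cRA, neither called, though the 9cRA difference was called without ATRA array 1 or ATRA array 3.

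COL5A2 and COL11A1 encode chains of the fibrillar collagens V and XI, known to sit in the core of fibres and to start their assembly. COL11A1 (probe at chr3:40680850-40680909) had log2 levels of 3.47, 3.47 and 3.28 with ATRA, 3.55, 3.37 and 3.42 with 9cRA, 4.40, 4.39 and 4.43 in the day 6 control and 4.69, 4.76 and 4.86 at day 0. The 6 retinoid arrays lie below every control array without overlap. The difference from the day 6 control was -1.002 with ATRA (SE 0.07, limma adjusted p = 1.24e-06), a 2.00-fold change. With 9cRA it was -0.96 (SE 0.07, limma adjusted p = 1.84e-06). The day 6 control differed from day 0 by -0.36 (limma adjusted p = 0.00117), which was not called under quantile normalization, at -0.17. Over culture 2 of the 8 tested COL11A1 probes were called lower, and the 8 ranged from -0.36 to -0.02 with a median of -0.25. All 8 were called lower with each retinoid, between -1.06 and -0.76 with ATRA and between -0.97 and -0.73 with 9cRA, and the repeat probe printed above differed by -0.82 with ATRA and by -0.75 with 9cRA.

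COL5A2, read by a single probe, had log2 levels of 4.59, 4.49 and 4.49 with ATRA, 4.52, 4.46 and 4.44 with 9cRA, 5.01, 4.92 and 5.05 in the day 6 control and 4.66, 4.71 and 4.83 at day 0. It was lower than in the day 6 control by 0.47 with ATRA (limma adjusted p = 9.36e-05) and by 0.52 with 9cRA (limma adjusted p = 4.35e-05). The day 6 control was higher than day 0 by 0.26 (limma adjusted p = 0.00281). The retinoid arrays thus lie below those of both other groups. COL5A3, a further type V chain, differed most over culture. It had log2 levels of -4.46, -4.33 and -4.20 with ATRA, -4.04, -4.40 and -4.62 with 9cRA, -3.97, -4.10 and -3.88 in the day 6 control and -1.41, -1.36 and -1.24 at day 0. In the day 6 control it was lower than at day 0 by -2.65 (SE 0.13, adjusted p = 4.84e-08), a 6.27-fold fall, and all 4 of its probes were called lower, from -2.65 to -0.57 for the repeat probe printed above. The difference from the day 6 control was -0.34 with ATRA (limma adjusted p = 0.0555) and -0.37 with 9cRA (limma adjusted p = 0.0429). The repeat probe lay on the other side of 0, at 0.33 and 0.30, and was not called. With slide as a block 9cRA gave no call (adjusted p = 0.169), and it gave none without ATRA array 2, 9cRA array 2 or 3, day 6 control array 1 or 3, or any day 0 array (differences between -0.37 and -0.23), while the ATRA difference was called without 9cRA array 1 or 3.

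COL27A1, a fibrillar collagen known from cartilage, moved the other way. Its log2 levels were 0.14, 0.58 and 0.51 with ATRA, 0.14, -0.19 and 0.09 with 9cRA, -0.85, -1.18 and -1.23 in the day 6 control and -1.61, -1.61 and -2.01 at day 0. No retinoid array overlaps a control array. COL27A1 rose by 1.496 with ATRA (SE 0.16, adjusted p = 2.94e-05), by 1.099 with 9cRA (SE 0.16, adjusted p = 0.000287) and by 0.66 in the day 6 control relative to day 0 (adjusted p = 0.00474), and all 3 tested probes were called higher in each comparison. COL2A1, the fibrillar collagen of cartilage, averaged -0.87 ± 0.05 with ATRA, -0.88 ± 0.13 with 9cRA, -0.97 ± 0.47 in the day 6 control and -0.99 ± 0.02 at day 0 (SD, n = 3 arrays each) and was called in no comparison. Only 1 of its 4 probes, the repeat probe printed above, was well above background on all arrays, so that the level rests on that probe alone. Its sign over culture depended on day 6 control array 1, the lowest of the 12. With slide as a block, where that array carries the comparison with day 0, COL2A1 was called lower in the day 6 control at -0.48 (limma adjusted p = 0.015), and without that array it was called higher at 0.28, against 0.03 over all arrays.

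Type IV and the multiplexins belong to or near the basement membrane. By their brightest probes COL4A1 and COL4A2, the chains of the ubiquitous type IV network, were called in neither retinoid comparison nor over culture. COL4A1 averaged 4.59 ± 0.05 with ATRA, 4.61 ± 0.13 with 9cRA, 4.55 ± 0.24 in the day 6 control and 4.55 ± 0.09 at day 0, and COL4A2 averaged 0.24 ± 0.19, 0.24 ± 0.31, -0.05 ± 0.31 and -0.32 ± 0.35 (SD, n = 3 arrays each). The 95% interval of the ATRA difference was -0.22 to 0.28 for COL4A1 and -0.20 to 0.78 for COL4A2, so that a rise of up to 0.78 in COL4A2 lies within its interval. The COL4A1 repeat probe printed above also differed little with ATRA, by 0.19 in the fit of single probes, and by -0.29 in the day 6 control relative to day 0 (limma adjusted p = 0.034). Of the 4 COL4A1 probes, 2 were called lower over culture, and the 4 ranged from -0.39 to 0.01. With 9cRA 1 was called lower, at -0.45, and with ATRA 0 were called.

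COL18A1, the multiplexin whose cut end fragment is known as endostatin, had the largest rise with retinoid among the collagens above background in every group. Its log2 levels (probe at chr1:147040904-147040963) were 6.14, 6.08 and 6.19 with ATRA, 6.01, 5.81 and 5.76 with 9cRA, 4.46, 4.51 and 4.55 in the day 6 control and 4.01, 4.02 and 4.12 at day 0. The groups form separate steps, since no retinoid array lies below 5.76 and no control array above 4.55. The rise was 1.63 with ATRA (SE 0.07, adjusted p = 3.25e-08), a 3.09-fold change, and 1.35 with 9cRA (SE 0.07, adjusted p = 1.25e-07), a 2.55-fold change, and the day 6 control was higher than day 0 by 0.46 (adjusted p = 0.000194). All 6 probes were called higher with each retinoid, between 1.08 and 1.91 with ATRA.

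COL15A1, the other multiplexin, known from the zone between basement membranes and fibres, fell over culture. Its log2 levels were -1.36, -1.31 and -1.22 with ATRA, -1.61, -1.60 and -1.67 with 9cRA, -1.503, -1.078 and -1.003 in the day 6 control and 0.07, 0.02 and 0.32 at day 0. It was lower in the day 6 control than at day 0 by -1.33 (SE 0.12, adjusted p = 5.17e-06), and both probes were called lower. Its difference was -0.43 with 9cRA (adjusted p = 0.0164) and -0.10 with ATRA (adjusted p = 0.527). The 2 probes disagreed with 9cRA, the other being called higher at 0.59 (limma adjusted p = 0.048), and the call was also lost without day 6 control array 2 (-0.37) or array 3 (-0.33). COL15A1 was called lower with ATRA too with slide as a block (-0.29) or without day 6 control array 1 (-0.26).

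The FACITs gave changes in both directions. COL12A1, which coats type I fibres in tendon and dense connective tissue, had log2 levels of 5.51, 5.45 and 5.34 with ATRA, 5.67, 5.51 and 5.33 with 9cRA, 5.69, 5.68 and 6.05 in the day 6 control and 4.28, 4.29 and 4.45 at day 0. It had the largest rise over culture of the collagens well above background in both groups, 1.47 in the day 6 control relative to day 0 (SE 0.11, adjusted p = 1.38e-06), or 2.77-fold, with both probes called higher. The difference was -0.37 with ATRA (adjusted p = 0.0221) and -0.30 with 9cRA (adjusted p = 0.0521). The ATRA call rests on the brighter probe, since the other differed by 0.01, and it did not stand with slide as a block (-0.38, adjusted p = 0.0618), under cyclic loess, and without ATRA array 2, ATRA array 3 or day 6 control array 3 (-0.25). The 9cRA difference was called without 9cRA array 1 (-0.39) or day 6 control array 1 or 2 (-0.36 each).

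COL16A1, a FACIT found along fibres in many connective tissues, was highest at day 0 and lowest with the retinoids. It had log2 levels of 3.70, 3.81 and 3.69 with ATRA, 3.63, 3.45 and 3.44 with 9cRA, 4.57, 4.44 and 4.55 in the day 6 control and 5.20, 5.23 and 5.29 at day 0. Day 0 arrays lie above the day 6 control and these above every retinoid array. COL16A1 fell by 0.79 with ATRA (SE 0.07, adjusted p = 4.56e-06), by 1.02 with 9cRA (SE 0.07, adjusted p = 7.09e-07) and by 0.72 in the day 6 control relative to day 0 (adjusted p = 4.58e-06). COL22A1, known from tissue junctions such as that of muscle and tendon, averaged -0.41 ± 0.17, -0.73 ± 0.22, -0.77 ± 0.35 and -1.03 ± 0.01 (SD, n = 3 arrays each) with ATRA, with 9cRA, in the day 6 control and at day 0. It was called neither with a retinoid nor over culture, and 1 of its 2 probes was above background. Without day 6 control array 2, COL22A1 was called higher with ATRA (0.54), and without day 6 control array 1 it was called higher over culture (0.42).

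Of the short-chain network collagens, COL8A1 and COL8A2 encode the chains of type VIII, known from vessel walls and the membrane under the corneal endothelium, and they differed from each other. COL8A2 had log2 levels of -1.87, -1.76 and -1.81 with ATRA, -1.52, -1.69 and -2.18 with 9cRA, -2.99, -3.24 and -3.11 in the day 6 control and -0.93, -0.81 and -1.01 at day 0. The day 6 control arrays lie below all others, and the retinoid arrays lie between them and day 0. Only 1 of the 2 COL8A2 probes could be tested, so that these levels rest on that probe alone. COL8A2 was lower in the day 6 control than at day 0 by -2.20 (SE 0.14, adjusted p = 3.86e-07), or 4.59-fold, and higher than the day 6 control by 1.30 with ATRA (adjusted p = 3.84e-05) and by 1.32 with 9cRA (SE 0.14 each, adjusted p = 3.64e-05). COL8A1 averaged 5.28 ± 0.04, 5.19 ± 0.06, 5.38 ± 0.07 and 5.22 ± 0.04 (SD, n = 3 arrays each) in the order ATRA, 9cRA, day 6 control and day 0. It was called lower with 9cRA at -0.19 (limma adjusted p = 0.0146) and higher over culture at 0.15 (limma adjusted p = 0.027), and neither stood with slide as a block. The 9cRA call was also lost without 9cRA array 2 or 3 or day 6 control array 2, and the call over culture without day 6 control array 2 (0.11) or day 0 array 1 or 3.

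COL10A1, the collagen of hypertrophic cartilage, was dim, with log2 levels of -5.25, -4.86 and -4.54 with ATRA, -4.70, -4.73 and -4.86 with 9cRA, -5.70, -5.33 and -5.05 in the day 6 control and -5.62, -5.41 and -5.77 at day 0. It was called higher with 9cRA at 0.60 (SE 0.19, adjusted p = 0.0289), a call that depends on slide, since with slide as a block the difference was -0.09 (adjusted p = 0.847). It was also lost without 9cRA array 1 or 2 and without day 6 control array 1 (0.43) or 2. With ATRA the difference was 0.47 (adjusted p = 0.0708), and it was called without ATRA array 1 (0.66) or day 6 control array 3 (0.63).

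In type VI, COL6A2 was highest at day 0 and lowest with the retinoids. It had log2 levels of 1.13, 1.02 and 1.14 with ATRA, 1.24, 1.00 and 0.92 with 9cRA, 1.42, 1.69 and 1.61 in the day 6 control and 2.36, 2.31 and 2.45 at day 0. The differences were -0.48 with ATRA (adjusted p = 0.00194), -0.52 with 9cRA (adjusted p = 0.00122) and -0.80 in the day 6 control relative to day 0 (SE 0.09 each, adjusted p = 2.99e-05), and no array of the retinoid groups reaches the day 6 control. The repeat probe printed above differed less, by -0.27 with ATRA, -0.21 with 9cRA and -0.48 over culture. It was called in none of these comparisons, while the other 3 of the 4 COL6A2 probes were called lower in each. COL6A1, its partner chain, was called in no comparison by its brightest probe, with means of 7.61 ± 0.04, 7.58 ± 0.03, 7.58 ± 0.09 and 7.63 ± 0.06 (SD, n = 3 arrays each) in the order ATRA, 9cRA, day 6 control and day 0. Its other 2 probes were called lower in all 3 comparisons, as described below.

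The transmembrane collagen COL13A1, known from the neuromuscular junction and from cell adhesion sites, had log2 levels of -2.23, -2.30 and -2.19 with ATRA and -2.72, -2.52 and -2.90 with 9cRA. In the day 6 control it lay at -6.78 and -6.58 on arrays 2 and 3, with the spot on array 1 left out as an outlier, and at day 0 at -7.81, -8.29 and -7.48. It was well above background on all retinoid arrays and on none of the day 6 control and day 0 arrays. Its probe (chr28:26406047-26406106) was therefore at least 14.8-fold higher with ATRA and at least 10.65-fold higher with 9cRA than in the day 6 control. It is counted among the calls, but since it entered the test through the groups where it was high, no p-value is given for it. These bounds set the mean of the bright group against the higher, per array, of the lowest signal well above background and the probe's own. COL13A1 has a single probe on the array, and the level between day 6 control and day 0 is not compared, since both were below background.

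COL28A1, a collagen known from peripheral nerve, had log2 levels of -5.64, -5.24 and -5.11 with ATRA, -4.97, -4.71 and -4.82 with 9cRA, -5.98, -5.24 and -5.28 in the day 6 control and -5.14, -4.87 and -5.09 at day 0. It was called higher with 9cRA at 0.67 (SE 0.20, adjusted p = 0.0194). With slide as a block the difference was 0.10 (adjusted p = 0.806), and without 9cRA array 2 it was 0.61 and not called. Over culture the difference was -0.47 (adjusted p = 0.0646), and it was called with slide as a block at -0.95, under quantile normalization (-0.58) and without day 6 control array 2 (-0.60) or 3 (-0.58).

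**Figure D2:**
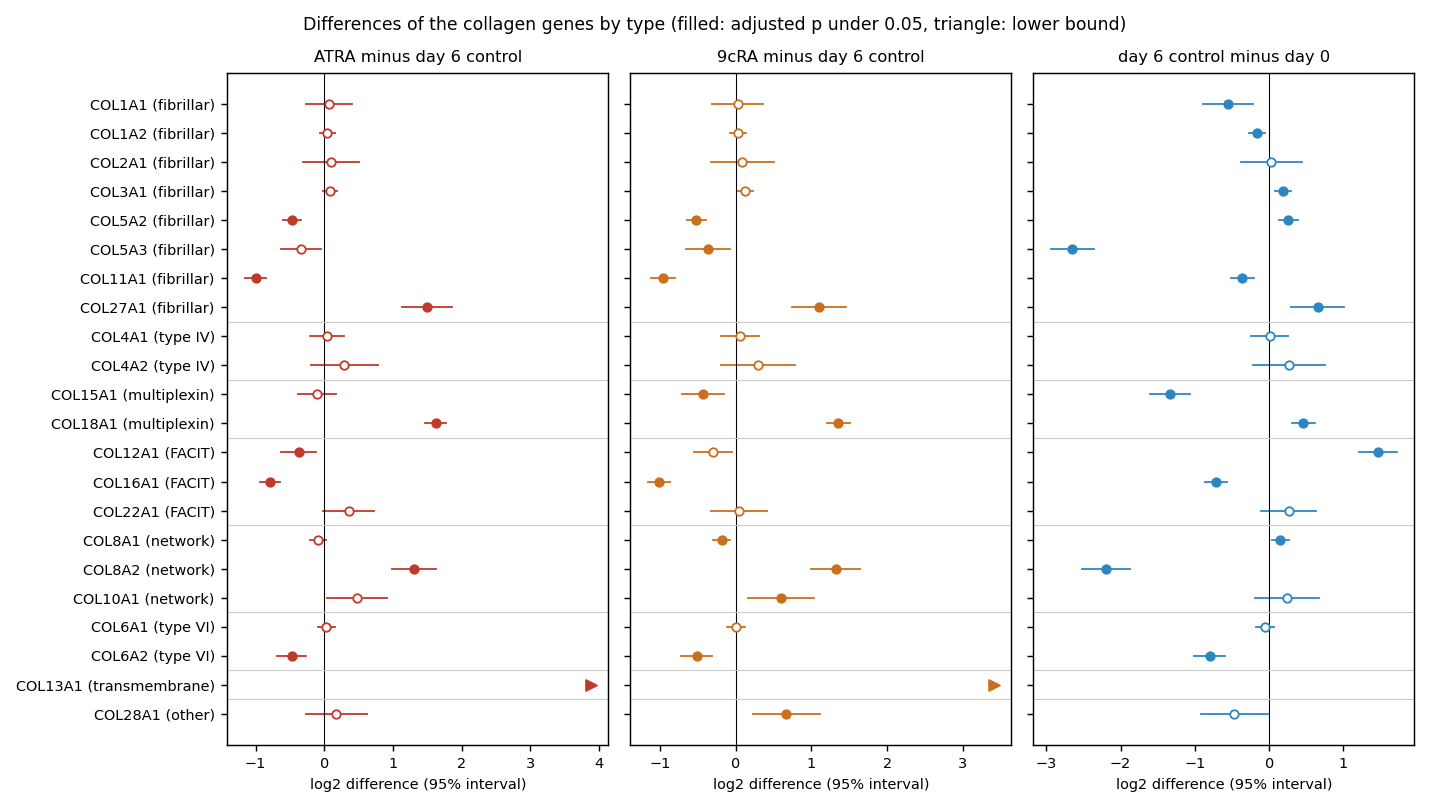
Log2 differences of the 22 tested collagen genes, by class from top to bottom, for ATRA and 9cRA against the day 6 control and for the day 6 control against day 0. Points are fitted differences with 95% intervals, filled where the adjusted p is under 0.05, and triangles are lower bounds for COL13A1, for which nothing is drawn between day 6 control and day 0. COL18A1, COL27A1 and COL8A2 lie right of 0 with both retinoids, COL11A1 and COL16A1 left of 0, and COL1A1, COL1A2 and COL4A1 near 0 with both.

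ATRA and 9cRA were compared directly at the same dose and day. Of 22 collagen genes, 0 were called different between them by limma, where 0.119% of all tested genes were, and 6 had an unadjusted p under 0.05. The smallest adjusted p was 0.211, for COL18A1, which was higher with ATRA by 0.27 (95% interval 0.12 to 0.43) and by 0.33 within slide 3. COL27A1 was higher with ATRA by 0.40 (95% interval 0.04 to 0.75), COL13A1 by 0.47 (0.06 to 0.89), COL15A1 by 0.33 (0.05 to 0.60) and COL16A1 by 0.23 (0.08 to 0.38), and COL28A1 was lower with ATRA by -0.50 (-0.94 to -0.05). No adjusted p of these passed the threshold. The 95% intervals of all 22 genes lay within 1 log2 unit of 0, and those of 16 within 0.5, which bounds the difference between the isomers and does not show that they act alike.

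**Figure D3:**
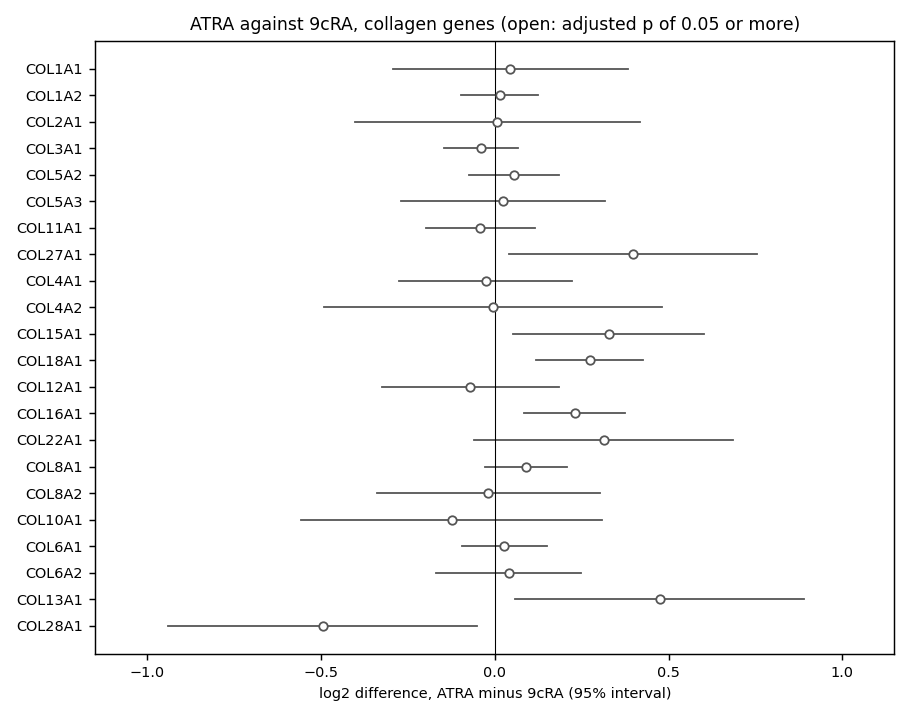
Log2 difference of ATRA minus 9cRA for the 22 tested collagen genes, with 95% intervals. All points are open because no adjusted p was under 0.05, and every interval lies between -0.94 and 0.89.

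Single collagens of several classes also differed after 6 days in adipogenic medium without retinoid. Relative to day 0, COL5A3, COL8A2, COL15A1, COL6A2 and COL16A1 were lower in the day 6 control and COL12A1, COL27A1 and COL18A1 were higher. Of 22 genes, 7 were called higher and 8 lower, where 31% of all tested genes were called higher and 31.3% lower, and 1 of those called higher was COL13A1, which was below background in both groups. The median collagen difference was 0.02, beside 0.00 over all genes. The share of collagens called over culture thus lay near that of all genes, which is no result about the collagens as a set. Set against day 0, the ATRA group had 8 collagen genes higher and 9 lower (38.7% and 32.8% of all tested genes), and the 9cRA group had 7 higher and 9 lower (39% and 32.4%). Under the slide block 4 were called higher in each of these comparisons. The calls of COL3A1, COL4A2, COL10A1, COL1A2, COL5A2 and COL8A2 were lost in both, and that of COL22A1 in the ATRA comparison, while COL2A1 and COL28A1 were called lower in both only with the block.

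The differences of the 3 later groups from day 0 are given side by side, and share the day 0 arrays. COL18A1 differed from day 0 by 2.08 with ATRA, 1.81 with 9cRA and 0.46 in the day 6 control. COL27A1 differed by 2.15 with ATRA, 1.75 with 9cRA and 0.66 in the day 6 control. COL5A3 differed by -2.99 with ATRA, -3.01 with 9cRA and -2.65 in the day 6 control. COL8A2 differed by -0.90 with ATRA and -0.88 with 9cRA but by -2.20 in the day 6 control. COL4A2, not called between the day 6 control and day 0 at 0.27, was called higher than day 0 with ATRA and with 9cRA at 0.56 each (limma adjusted p = 0.041 and 0.040). Under the slide block neither was called and both signs turned, at -0.09 with ATRA and -0.31 with 9cRA.

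For several bulk collagens the size and even the sign of a difference depended on which probe was read. Of 75 tested collagen probes, 11 were called higher and 24 lower with ATRA (21.9% and 21.5% of all tested probes), 14 higher and 29 lower with 9cRA (22.7% and 20.8%), and 24 higher and 27 lower in the day 6 control relative to day 0 (28.6% and 33.1%). Of 15 genes with several tested probes, 3 that were not called with ATRA by their brightest probe had another probe that was, COL1A2, COL3A1 and COL6A1. With 9cRA there were 5, these and COL1A1 and COL4A1.

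COL6A1 showed this most plainly. Its brightest probe differed by 0.03 with ATRA and by -0.05 over culture, whereas its other probes differed with ATRA by -0.51 and -0.40, with 9cRA by -0.59 and -0.53, and between the day 6 control and day 0 by -0.63 and -0.55, all called. For COL3A1, 5 of 10 probes were called lower with ATRA and 6 with 9cRA, down to -0.39, while its brightest probe was at 0.08 and 0.12. Over culture 9 of the 10 COL3A1 probes were called higher, with a median of 0.41, against 0.19 for the brightest. For COL1A2 the repeat probe printed above differed by -0.33 with ATRA, by -0.43 with 9cRA and by -0.66 over culture, against 0.04, 0.03 and -0.17 for the brightest probe. Another COL1A2 repeat probe, not printed, differed by -0.30, -0.46 and -0.57. For COL1A1 all 5 probes were called lower in the day 6 control than at day 0, between -1.36 and -0.46, the repeat probe by -1.03.

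The brightest probes of COL1A2, COL3A1 and COL6A1 had processed signals of 244342 to 282279, 138287 to 189447 and 218051 to 253080 over the 12 arrays. No collagen spot was marked as saturated. Across the array, 126 genes with at least 3 tested probes had a brightest probe with a mean log2 level of 6 or more. Over these genes the median absolute difference between the day 6 control and day 0 was 0.192 for the brightest probe and 0.284 for the median of the others. With the retinoids the gap was smaller or absent, at 0.122 and 0.146 for ATRA and 0.164 and 0.163 for 9cRA against the day 6 control. Over culture it was 0.311 and 0.327 for 1166 genes whose brightest probe lay between 0 and 2. The part of brightness in the probe differences was not tested.

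**Figure D4:**
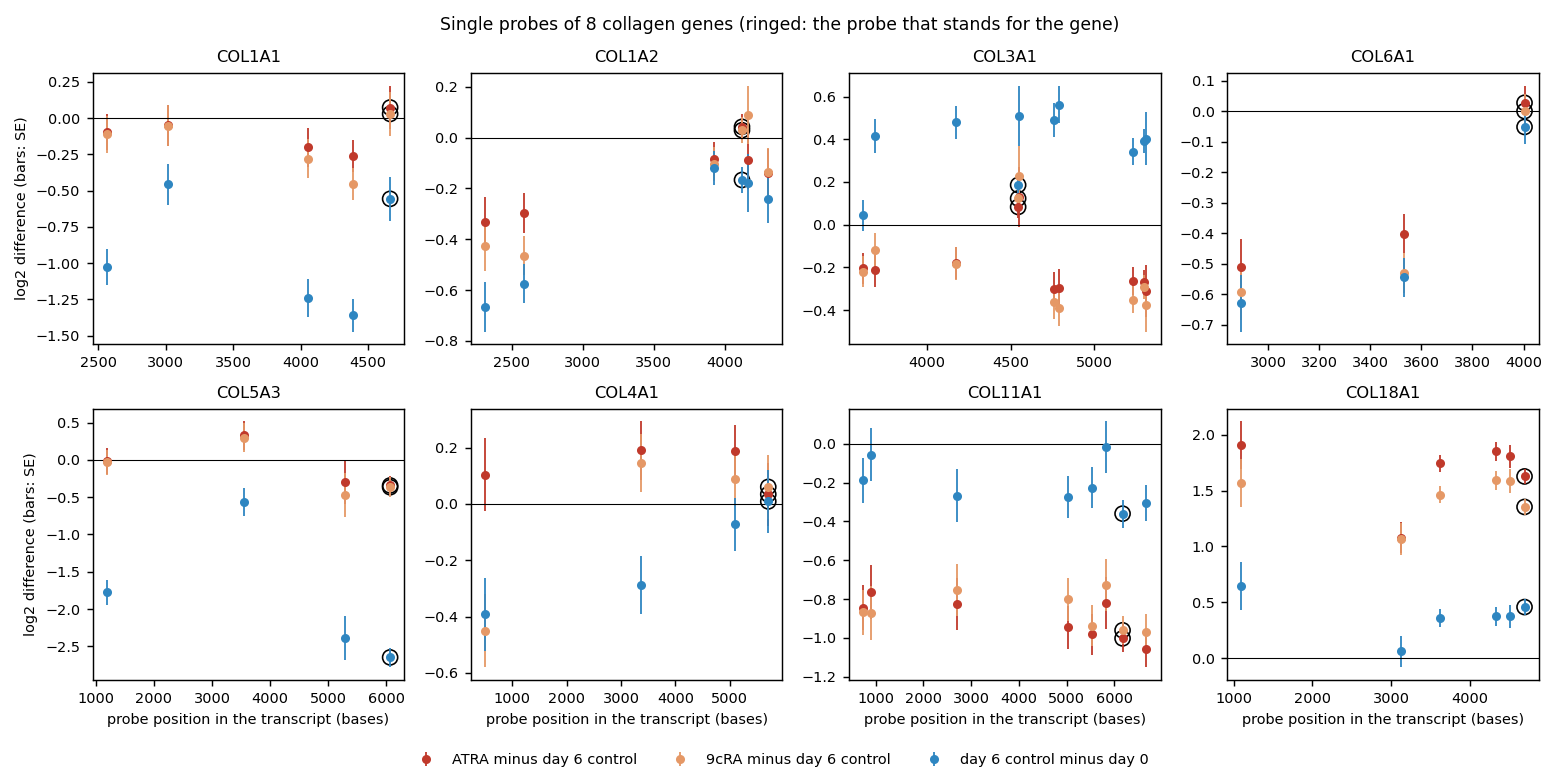
Log2 differences of single probes against their position in the transcript (bases) for 8 collagen genes, with bars for the SE and rings around the probe that stands for the gene. In COL6A1, COL1A2 and COL3A1 the ringed probe lies closer to 0 than most others, and in COL11A1 and COL18A1 all probes lie on the same side of 0 with both retinoids.

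Genes for making, exporting and binding collagen were mostly higher after culture without retinoid and lower with retinoid among those called. Of 51 genes on 5 lists covering modification, chaperones and export, propeptide processing, cross-linking and reception, 43 could be tested. With ATRA 7 were called higher and 20 lower, where 23.7% of all tested genes were called higher and 22.4% lower. With 9cRA 7 were called higher and 19 lower, where 24.8% and 21.8% of all genes were, and in the day 6 control relative to day 0 26 were called higher and 8 lower, where 31% and 31.3% were. These shares are the background for the smaller counts per list below, of which those on lists of 4 to 9 genes are descriptions of their members and not results about the list. The median difference was -0.17 with ATRA, -0.21 with 9cRA and 0.30 over culture, beside medians of 0.05, 0.06 and 0.00 over all genes. The retinoid and culture comparisons use the same day 6 control arrays with opposite sign, so that their patterns are not independent. Against day 0, 18 were called higher and 12 lower with ATRA, where 38.7% and 32.8% of all genes were. With 9cRA 18 were higher and 14 lower against day 0, where 39% and 32.4% were. The median differences from day 0 were 0.05 with ATRA and 0.10 with 9cRA, beside 0.05 and 0.07 over all genes. Between ATRA and 9cRA 0 of 43 were called by limma, and 4 had an unadjusted p under 0.05.

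Among the enzymes that hydroxylate and glycosylate chains in the endoplasmic reticulum, 1 of 13 rose and 7 fell with each retinoid, and 9 rose and 2 fell over culture. P4HA3, a catalytic subunit of prolyl 4-hydroxylase, which stabilises the helix, had log2 levels of -0.44, -0.47 and -0.56 with ATRA, -0.30, -0.35 and -0.47 with 9cRA, 3.00, 2.75 and 2.76 in the day 6 control and -1.98, -2.07 and -1.71 at day 0. The day 6 control arrays lie above all others. The difference was -3.33 with ATRA (SE 0.10, adjusted p = 4.0e-09), a 10.0-fold fall, -3.21 with 9cRA (adjusted p = 5.5e-09) and 4.76 in the day 6 control relative to day 0 (adjusted p = 1.5e-10). P4HA1, the main subunit of that enzyme in many cells, rose over culture by 1.77 (adjusted p = 1.3e-06) and differed by -0.36 with ATRA (adjusted p = 0.051) and -0.31 with 9cRA (adjusted p = 0.089). P3H2, a prolyl 3-hydroxylase known to act on type IV collagen, rose by 1.74 with ATRA (adjusted p = 9.5e-08) and 1.53 with 9cRA (adjusted p = 2.6e-07). P3H4, a partner of lysine hydroxylation, fell by 0.65 with ATRA and 0.64 with 9cRA. PLOD2, the lysyl hydroxylase of the chain ends, named after its value was seen, rose over culture by 2.33 and was not called with either retinoid. With slide as a block the 9cRA difference was -3.02 for P4HA3 and -0.33 for P4HA1. For PLOD2 it was 0.06, against -0.21 without the block. Calls of the pathway genes under the slide block are not given here.

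Of 11 chaperones and export factors, 2 rose and 4 fell with ATRA and 2 rose and 3 fell with 9cRA, while 6 rose and 2 fell over culture. SERPINH1, the collagen chaperone known as HSP47, had log2 levels of 4.40, 4.40 and 4.47 with ATRA, 4.41, 4.44 and 4.41 with 9cRA, 4.76, 4.95 and 4.79 in the day 6 control and 4.58, 4.70 and 4.66 at day 0. It fell by 0.41 with each retinoid (adjusted p = 0.00024 with ATRA and 0.00023 with 9cRA), to below its day 0 level. FKBP10, a helix-folding isomerase, fell by 0.42 with ATRA and by 0.64 with 9cRA. SEC24D, a coat subunit of the vesicles that export procollagen, rose by 0.37 with ATRA and 0.50 with 9cRA.

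Of 4 tested genes that trim the propeptides, 1 rose and 2 fell with each retinoid, and 3 rose over culture. ADAMTS2, the N-propeptide protease of type I collagen, fell by 0.62 with ATRA and 0.69 with 9cRA. In the day 6 control ADAMTS2 was higher than at day 0 by 1.22 (limma adjusted p = 5.0e-07). PCOLCE2, an enhancer of C-propeptide removal, fell by 0.68 with ATRA and 0.53 with 9cRA, and ADAMTS3, a relative of ADAMTS2, rose by 0.50 and 0.51. BMP1, the C-propeptide protease, has no probe under that name.

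Of 6 cross-linking genes, 1 rose and 3 fell with each retinoid, and 3 rose and 3 fell over culture. LOX, the lysyl oxidase that cross-links fibres, had log2 levels of 5.36, 5.47 and 5.47 with ATRA, 5.54, 5.40 and 5.32 with 9cRA, 5.88, 6.14 and 6.03 in the day 6 control and 4.81, 4.84 and 4.88 at day 0. The retinoid arrays lie between the day 6 control and day 0, with differences from the day 6 control of -0.58 with ATRA (adjusted p = 0.00013) and -0.60 with 9cRA (adjusted p = 0.00011). LOXL4 fell by 0.62 with ATRA and 0.77 with 9cRA, and LOXL2 by 0.43 and 0.60, though 1 LOXL2 probe was higher by 0.48 with ATRA and 0.56 with 9cRA. TGM2, the transglutaminase and a known retinoid-responsive gene, rose by 1.36 with ATRA (adjusted p = 3.4e-07) and 1.20 with 9cRA (adjusted p = 9.3e-07).

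Of 9 collagen receptors and uptake genes, 2 rose and 4 fell with each retinoid. ITGA11, the integrin chain that binds fibrillar collagen on fibroblasts, fell by 1.29 with ATRA (SE 0.17, adjusted p = 0.00012) and by 1.26 with 9cRA (adjusted p = 0.00015), and ITGA1, whose integrin also binds type IV collagen, fell by 0.83 and 0.87. ITGB1, the shared partner chain of both, fell by 0.37 with ATRA and 0.28 with 9cRA.

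**Figure D5:**
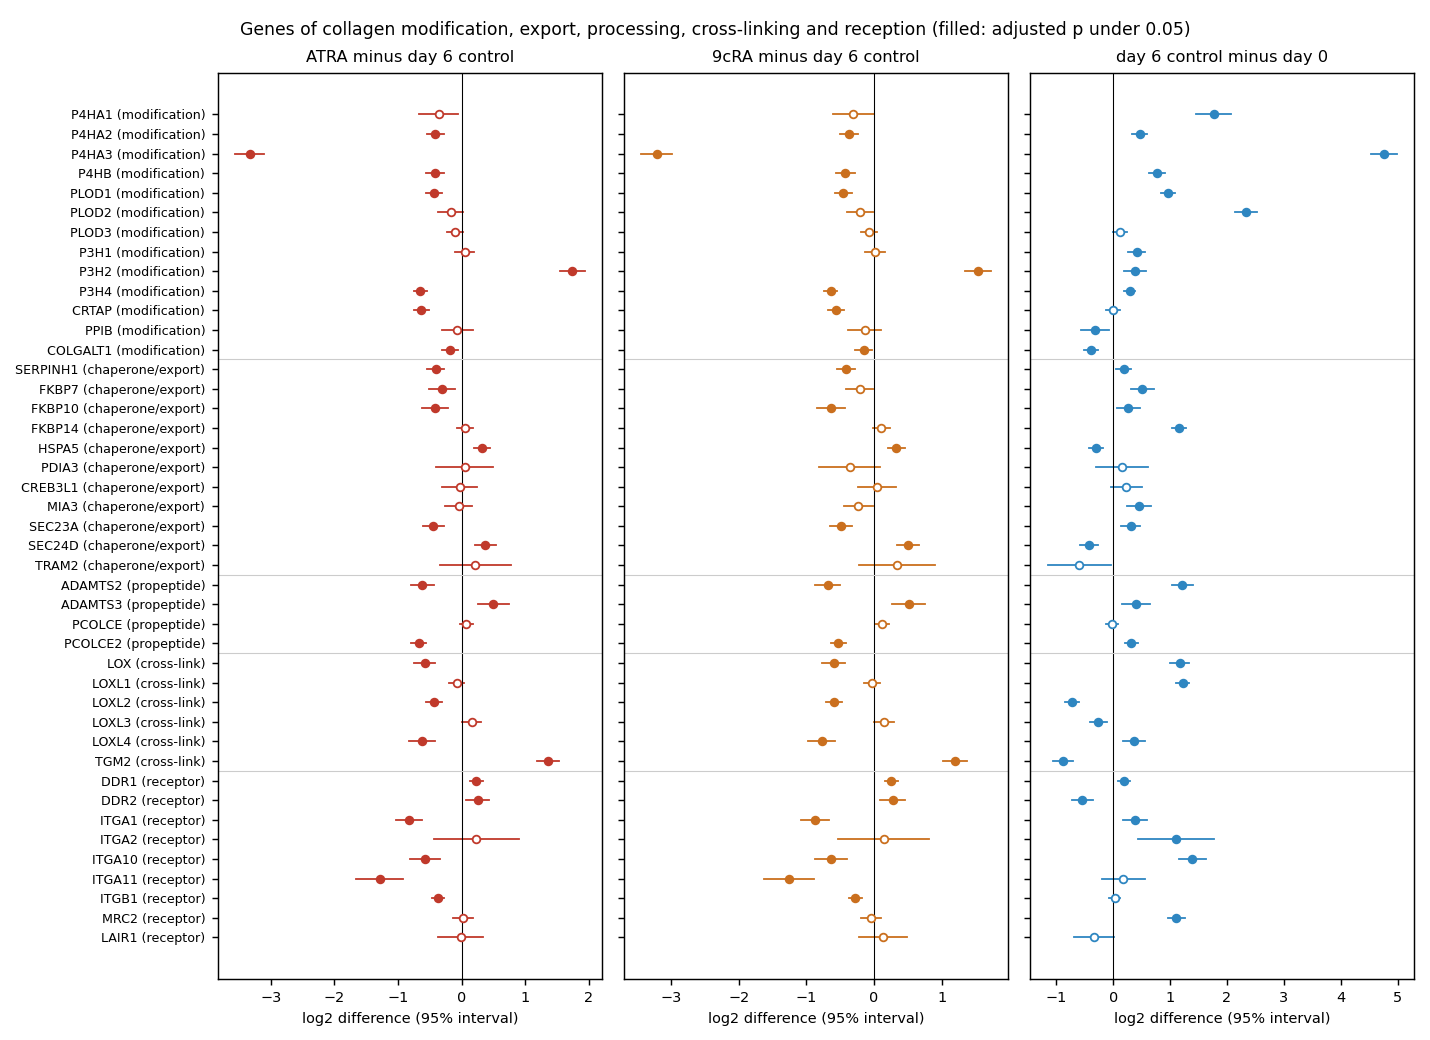
Log2 differences of the 43 tested genes of collagen modification, export, processing, cross-linking and reception, for ATRA and 9cRA against the day 6 control and for the day 6 control against day 0. Points are fitted differences with 95% intervals, filled where the adjusted p is under 0.05. P4HA3 lies farthest left with both retinoids, at -3.33 and -3.21, and farthest right over culture, at 4.76.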

How the data were processed

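Total RNA of BIP cells was labelled with Cy3 and hybridised to 1-colour Agilent bovine arrays, per the labels' protocols. The deposited scanner files hold spot intensity from Feature Extraction 10.7.3.1 on a linear scale, already background-corrected by that software, per the file headers. The deposited value table holds 1 log2 value per probe and group, centred near 0 by the authors in a way not given in the sources used here, and served as an alternative only. Outlier spots (191 of 525636) were dropped, no spot was saturated, and log2 intensity minus the array's 75th percentile was fitted with group means over 12 arrays in limma 3.58.1 (R 4.3.3). Genes (brightest probe) were tested if well above background on all 3 arrays of a group, and p-values were Benjamini-Hochberg adjusted over all genes tested in a comparison. The number of arrays limits the precision. The fit was tested on simulated data.

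The members and lists were chosen with earlier results of these data known. Named were, per class, the called genes with the largest differences, a set of main chains, and every tested collagen never called, which together took in all 22. Pathway genes named were, per list, the 3 with the smallest adjusted p with a retinoid, with SERPINH1, P4HA1 and LOX. PLOD2 was named after its value was seen. Current symbols came from RefSeq accessions in the ARS-UCD2.0 gene table, which matched 77 of the 105 collagen probes and contradicted 0. Alternatives were normexp background correction (offset 50), quantile, median and cyclic loess scaling, both filters on dim probes, slide or array number as a block, fits to the groups compared, other probe choices, and leaving out each array.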

Additional observations from a re-analysis of the deposited data

How the results depend on the processing

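The number of collagen genes called stayed within 1.5 times its value in each comparison: between 8 and 11 for ATRA against the day 6 control (9 as reported), between 9 and 14 for 9cRA (13), 0 throughout between ATRA and 9cRA, and between 13 and 17 for the day 6 control against day 0 (15). Leaving out 1 array gave 8 to 10 with ATRA, 9 to 14 with 9cRA, 0 between the isomers, 14 to 17 over culture, 15 to 17 for ATRA and 14 to 16 for 9cRA against day 0. With array number as a replicate block the counts were 9, 12, 0 and 16, and 15 and 14 against day 0. Deviations of same-numbered arrays correlated between -0.20 and 0.10, so that the numbers share only a name. With slide as a block the counts were 9, 9, 0 and 16, and 12 each against day 0, of which 4 each were higher.

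The sign turned mainly with the choice of probe. With the median of the probes fitted one by one, COL3A1 was at -0.24 with ATRA and -0.26 with 9cRA, COL6A1 at -0.40 and -0.53, and COL15A1 at 0.078 with 9cRA. With the mean of a gene's probes, COL1A2 was at -0.15 with ATRA and -0.17 with 9cRA, COL3A1 at -0.18 and -0.19, COL6A1 at -0.29 and -0.37, and COL15A1 at 0.078 with 9cRA. With slide as a block COL10A1 was at -0.088 with 9cRA and COL2A1 at -0.48 over culture. COL1A2 over culture was at 0.0093 under quantile normalization and 0.031 under cyclic loess. The causes were not tested. No value within a slide could be had for 9cRA against the day 6 control or for either retinoid against day 0. With slide as a block, the comparisons with day 0 rest on day 6 control array 1 as the only tie between slides. Signal over background limits COL10A1, COL13A1 and COL28A1.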

Other observations

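The array holds 6 further probes whose gene name does not have the form used to choose the collagens but whose current name is a collagen: 2 for COL7A1, 2 for COL26A1, and 1 each for COL4A5 and COL23A1. They were not counted among the 105 collagen probes.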
